A study of Homo sapiens with 18 samples.

Results

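Cells of U-87MG, a long established line from a human glioblastoma, were compared with and without the enzyme IL4I1 while the aryl hydrocarbon receptor AHR was kept low by the hairpin shAHR1. The members are the 3 arrays titled IL4I1_shAHR1 and the 3 titled C_shAHR1, 6 of the 18 arrays of the series. IL4I1 shAHR1 cells carried a human IL4I1 cDNA in the lentiviral vector pLX301, and vector shAHR1 cells carried the empty pLX301, with puromycin selection in both cases. All 6 cultures also carried the stable shERWOOD UltramiR hairpin shAHR1 and were grown for 120 h before total RNA was taken. The other 12 arrays, used only where stated, paired IL4I1 with empty vector in cells of a second AHR hairpin (shAHR2) and in cells of a non-targeting hairpin (shCtrl). The design text calls the 3 arrays of a group independent experiments. It does not say how many infections stand behind a stable line, so the p-values measure the spread between these cultures.

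IL4I1 is a secreted L-amino acid oxidase that turns aromatic amino acids, tryptophan among them, into keto acids, with ammonia and hydrogen peroxide as by-products. AHR is a transcription factor of the cytosol that enters the nucleus when it binds certain aromatic compounds, pairs with ARNT and binds short DNA elements in genes such as CYP1B1, AHRR and TIPARP. AHRR and TIPARP in turn restrain AHR. Indole derivatives of tryptophan, including some formed from the keto acid, are known AHR ligands.

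Values are log2 expression per gene, as deposited by the authors, so a difference of 1 is a doubling of the measured level. Changes are IL4I1 shAHR1 minus vector shAHR1 cells, with the standard error (SE) of a limma fit over all 18 arrays. A gene was called where its Benjamini-Hochberg adjusted p over 15529 genes was under 0.05. The 6 arrays had medians between 6.46 and 6.53; the lowest correlation between any pair was 0.896, the highest 0.946, and 0 pairs held identical values. Of 7 measured markers of mesenchymal glioblastoma lines, 6 lay above the median of all probe sets (6.51) in both groups. They included vimentin (VIM), at 12.22 in IL4I1 shAHR1 and 12.28 in vector shAHR1 cells, and 0 of the 7 were called. Of 5 leukocyte markers, only the integrin ITGAX lay above 6.51, at 8.04 in IL4I1 shAHR1 and 6.82 in vector shAHR1 cells, and it was called (1.22 ± 0.22, adjusted p = 0.014). The pan-leukocyte marker PTPRC was at 6.50 in IL4I1 shAHR1 and 6.41 in vector shAHR1 cells; the list averaged 6.02 to 6.47 and 6.03 to 6.19 per array in the same order, and its part in the results was not tested. Of 5 embryonic kidney and epithelial markers, 2 lay above the median in both groups. GFAP, the filament protein of astrocytes, was below the median, at 6.47 in IL4I1 shAHR1 and 6.31 in vector shAHR1 cells.

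IL4I1 itself measured 13.01, 12.67 and 12.88 in IL4I1 shAHR1 cells, against 5.95, 6.02 and 6.30 in vector shAHR1 cells. The groups were far apart on every array. AHR measured 8.04, 7.94 and 8.16 in IL4I1 shAHR1 cells and 7.82, 8.11 and 7.66 in vector shAHR1 cells. These overlapped, and the change of 0.18 ± 0.16 was not called (adjusted p = 0.72). AHR averaged 10.02 ± 0.27 in IL4I1 shCtrl cells and 10.14 ± 0.09 in vector shCtrl cells (SD, n = 3 each), above every shAHR1 array. AHR under the hairpin still lay above the median of all probe sets.

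With IL4I1, 87 genes rose (0.56% of those tested) and 117 fell (0.753%), 204 in all (1.31%). Among those that rose were the receptor gene SLAMF9, the cytokine gene IL36B, 7 chaperones and stress genes of the endoplasmic reticulum, 4 AHR targets and 4 NRF2 targets. NQO1 and NFE2L2 are counted both as AHR targets and as NRF2 targets. Genes of DNA replication and mitosis and the chemokine CCL2 were among those that fell. The median change of the called genes was 1.15 for those that rose and -1.28 for those that fell, against -0.0188 over all genes tested. The arrays of the 2 groups did not overlap for 203 of the 204, nor for 18.1% of all genes tested (8.19% higher and 9.87% lower with IL4I1). In bulk RNA, fewer cells in a given state and less RNA per cell cannot be told apart.

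The count of calls changed with the arrays in the fit. Each of these fits holds fewer arrays, and the cause of the change was not tested. It was 54, 211 and 34 without vector shAHR1 replicate 1, 2 and 3, and 121, 42 and 90 without IL4I1 shAHR1 replicate 1, 2 and 3. With only the 6 compared arrays in the fit it was 43, of which 35 were among the 204. Of the genes named here, IL4I1, SLAMF9, NMB, MPV17L, IL36B, DCLK1, MANF, SDF2L1, PDIA4, CCL2 and DCC stayed called in each of these 7 fits. CALR, VCAN and LBP stayed called without any single array but not with the 6 arrays alone.

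**Figure D1:**
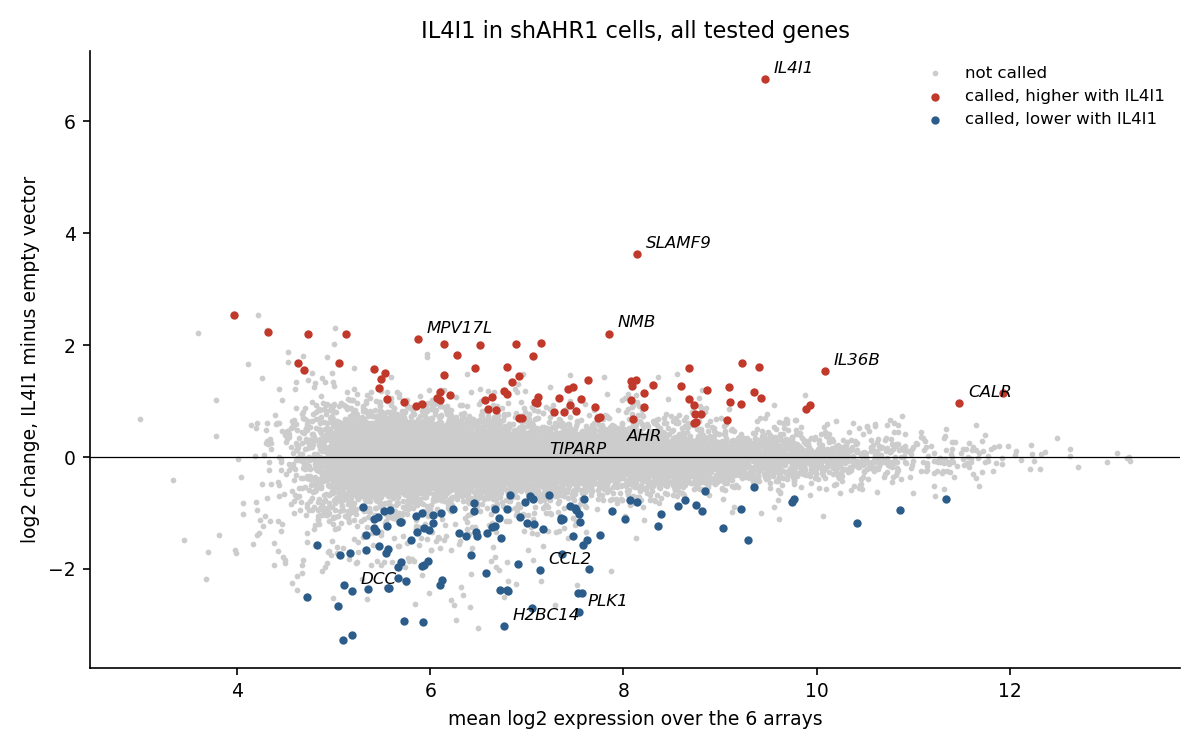
Each point is a gene of the 15529 tested, with its mean log2 expression over the 6 arrays on the horizontal axis and its log2 change (IL4I1 minus empty vector, shAHR1 cells) on the vertical axis. Red points are the 87 called higher and blue points the 117 called lower, and IL4I1 (6.76) and SLAMF9 (3.62) stand highest.

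Apart from IL4I1, the largest rise among genes taken by the naming rule was that of SLAMF9, a cell surface receptor of the SLAM family. It measured 9.48, 10.10 and 10.27 in IL4I1 shAHR1 cells, against 6.60, 6.06 and 6.33 in vector shAHR1 cells. All 3 IL4I1 arrays lay well above the vector arrays, a 12.3-fold difference (3.62 ± 0.30, adjusted p = 1.7e-05). NMB, which encodes the neuropeptide neuromedin B, measured 9.33, 8.58 and 8.96 in IL4I1 shAHR1 cells, against 6.95, 6.82 and 6.47 in vector shAHR1 cells. The groups did not overlap (2.21 ± 0.26, adjusted p = 0.00071). MPV17L, a membrane protein related to MPV17, measured 6.73, 6.82 and 7.23 with IL4I1 and 5.14, 4.56 and 4.76 without it (2.10 ± 0.24, adjusted p = 0.00071).

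The cytokine genes IL36B, IL1A and IL24 rose. IL36B, an IL1 family cytokine, measured 11.13, 10.86 and 10.59 in IL4I1 shAHR1 cells, against 9.42, 9.29 and 9.24 in vector shAHR1 cells (1.54 ± 0.19, adjusted p = 0.00085). It was abundant in both groups, which did not overlap. IL1A, which encodes interleukin 1 alpha, measured 7.66, 7.95 and 8.29 in IL4I1 shAHR1 cells, against 5.26, 7.06 and 6.18 in vector shAHR1 cells. The vector arrays were spread widely, with replicate 1 lowest (1.80 ± 0.38, adjusted p = 0.031). IL24, a cytokine of the IL20 family, measured 8.21, 7.54 and 8.76 with IL4I1 and 5.31, 6.92 and 6.15 without it (2.05 ± 0.43, adjusted p = 0.03). Replicate 1 was again the lowest vector array, and without it neither IL1A nor IL24 was called. Both were also not called without vector shAHR1 replicate 3 or IL4I1 shAHR1 replicate 3, nor was IL1A without IL4I1 replicate 2 or IL24 without IL4I1 replicate 1.

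IL36B is not on the cytokine and chemokine list. Of its 34 measured genes, 2 rose (IL1A and IL24) and 1 fell (CCL2), against 0.56% and 0.753% of all genes. The median change of the list was 0.09. IL1B (-0.57 ± 0.35), IL6 (0.11 ± 0.43) and the neutrophil attractant CXCL8 (0.04 ± 0.36) were not called. CXCL8 measured 9.46, 9.72 and 10.65 with IL4I1 and 9.04, 10.71 and 9.96 without it, with full overlap. CCL2, which attracts monocytes, measured 6.44, 5.91 and 5.99 in IL4I1 shAHR1 cells, against 7.99, 8.36 and 8.09 in vector shAHR1 cells. It was 4.08-fold lower with IL4I1, with no overlap (-2.03 ± 0.24, adjusted p = 0.00071).

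Other genes taken as rising by the rule had varied roles. Glucose handling was represented by HKDC1, a hexokinase-like protein (1.61 ± 0.28, adjusted p = 0.013), and by the transporter SLC2A10 (2.01 ± 0.38, adjusted p = 0.018). The hexokinase HK2 was the only called gene of 32 for hypoxia and glycolysis (0.76 ± 0.17, adjusted p = 0.041), against 0.56% of all genes higher. Its call was lost when any 1 of the 6 arrays was left out, and with the 6 arrays alone. The doublecortin-like kinase DCLK1 measured 7.21, 7.38 and 7.20 in IL4I1 shAHR1 cells, against 5.70, 5.82 and 5.48 in vector shAHR1 cells (1.60 ± 0.21, adjusted p = 0.0014). The synaptic adhesion gene NRXN3 (1.82 ± 0.39, adjusted p = 0.035), the hair keratin KRT86 (1.58 ± 0.26, adjusted p = 0.0094) and GCNT3, a glycosyltransferase of mucin-type sugars (2.03 ± 0.43, adjusted p = 0.035), rose as well. Of 21 genes of lysosome and V-ATPase, 2 rose, against 0.56% of all genes. They were the proton pump subunit ATP6V0D2 (2.00 ± 0.43, adjusted p = 0.035) and the glycoprotein GPNMB (1.69 ± 0.31, adjusted p = 0.017). LBP, the lipopolysaccharide binding protein, rose from a vector mean at the floor, here 4.51, the value that the dimmest 1% of group means do not exceed, so no size is given (adjusted p = 0.004).

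**Figure D2:**
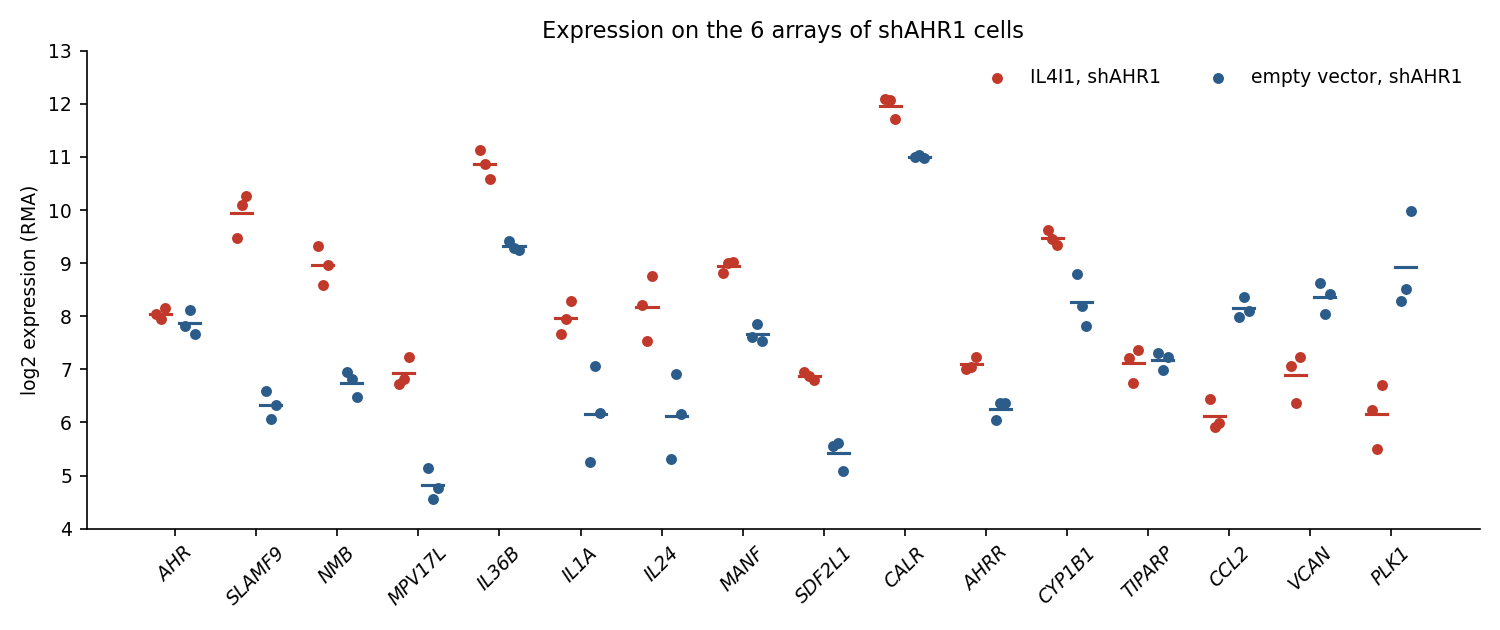
Log2 expression of 16 genes on the 6 arrays, IL4I1 shAHR1 cells in red to the left of vector shAHR1 cells in blue, with a bar at each mean. SLAMF9, NMB, MANF and SDF2L1 lie higher with IL4I1 on all 3 arrays, CCL2, VCAN and PLK1 lower, and AHR and TIPARP overlap.

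Of 9 measured AHR targets, 4 rose and 0 fell, against 0.56% and 0.753% of all genes tested, with a median change of 0.50. AHRR, the repressor of AHR, measured 6.999, 7.054 and 7.238 in IL4I1 shAHR1 cells, against 6.039, 6.371 and 6.371 in vector shAHR1 cells. The groups did not overlap (0.84 ± 0.17, adjusted p = 0.029). CYP1B1, a cytochrome P450 enzyme, measured 9.63, 9.45 and 9.34 in IL4I1 shAHR1 cells, against 8.80, 8.20 and 7.81 in vector shAHR1 cells. The IL4I1 arrays were close together and the vector arrays more spread (1.20 ± 0.28, adjusted p = 0.041). NQO1, a quinone reductase, was at 9.76, 9.54 and 9.48 with IL4I1 and at 8.84, 8.46 and 8.53 without it (0.98 ± 0.20, adjusted p = 0.03). NFE2L2, which encodes the oxidative stress factor NRF2, rose by 0.63 ± 0.15 (adjusted p = 0.046). NQO1 and NFE2L2 stand on the list of NRF2 targets too.

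These calls were close to the threshold. Of the 4, only CYP1B1 remained called without vector shAHR1 replicate 1 and only AHRR without replicate 2. None remained without vector replicate 3, without any IL4I1 replicate, or with the 6 arrays alone. TIPARP, an ADP-ribosyltransferase that restrains AHR, measured 7.21, 6.75 and 7.37 in IL4I1 shAHR1 cells and 7.30, 6.98 and 7.23 in vector shAHR1 cells. The arrays overlapped fully and it was not called (-0.06 ± 0.18, adjusted p = 0.94). CYP1A2 (-0.16 ± 0.35), ALDH3A1 (-0.13 ± 0.25), the transporter ABCG2 (0.50 ± 0.21) and the amino acid transporter SLC7A5 (0.12 ± 0.28) were not called either. Among 25 further genes reported to respond to AHR, 1 rose (IL1A) and 0 fell, against 0.56% and 0.753% of all genes. Their median change was 0.27, with 20 above 0 and 5 below. For 10 of them the arrays were higher with IL4I1 without overlap, against 8.19% of all genes. Among 12 genes of the AHR machinery 0 were called, against 1.31% of all genes, and 6 were higher without overlap. NCOA2 (0.54 ± 0.21) and NCOA3 (0.47 ± 0.20) were among these 6, while the partner ARNT had a change of -0.11 ± 0.14.

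Promoters of AHRR and TIPARP are shown because both genes restrain AHR while AHRR was called and TIPARP was not. The letters GCGTG, the core of the element that AHR with ARNT binds, were searched on both strands of the 250 bases before each start in RefSeq (GRCh38.p14), and matches are in capitals. AHRR has 2 starts in that table and TIPARP 3; the start listed at the top is shown, AHRR at chr5:321464-321713 and TIPARP at chr3:156674340-156674589, both on the plus strand.
AHRR: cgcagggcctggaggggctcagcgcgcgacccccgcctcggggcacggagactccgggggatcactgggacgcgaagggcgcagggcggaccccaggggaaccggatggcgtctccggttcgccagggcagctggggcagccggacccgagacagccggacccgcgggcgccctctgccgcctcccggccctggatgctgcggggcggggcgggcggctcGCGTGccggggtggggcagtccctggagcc
TIPARP: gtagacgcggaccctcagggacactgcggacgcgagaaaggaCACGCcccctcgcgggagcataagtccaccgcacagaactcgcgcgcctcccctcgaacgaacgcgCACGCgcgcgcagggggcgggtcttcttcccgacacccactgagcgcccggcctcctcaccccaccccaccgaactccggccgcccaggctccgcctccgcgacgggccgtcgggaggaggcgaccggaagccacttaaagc
AHRR held 1 match on the strand shown, 30 to 26 bases before its start. TIPARP held 2 on the opposite strand, which read CACGC here, 208 to 204 and 142 to 138 bases before its start. The same letters occurred in 32.2% of all 35116 promoter windows. Counted by gene, with a match before any of its starts, they occurred in 36.2% of 27305 genes. The counts of targets below are by gene. Of the 4 called targets 3 had a promoter in the table, and 2 of these, AHRR and NFE2L2, held a match. Among all measured targets 7 had one in the table and 5 of them held a match.

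Chaperones of the endoplasmic reticulum, which fold secreted proteins and are raised when unfolded protein builds up there, rose together. Of 17 measured genes of this group 7 rose and 0 fell, against 0.56% and 0.753% of all genes, and the median change was 0.65. All 17 changes were above 0, between 0.14 and 1.46. SDF2L1, an endoplasmic reticulum protein of the SDF2 family, measured 6.95, 6.88 and 6.80 in IL4I1 shAHR1 cells, against 5.55, 5.62 and 5.08 in vector shAHR1 cells (1.46 ± 0.19, adjusted p = 0.0013). MANF, a secreted protein that also resides in the endoplasmic reticulum, measured 8.81, 9.01 and 9.03 with IL4I1 and 7.60, 7.86 and 7.53 without it (1.29 ± 0.17, adjusted p = 0.0013). For both genes every IL4I1 array lay above every vector array.

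The disulfide isomerase PDIA4 measured 9.94, 9.98 and 9.87 in IL4I1 shAHR1 cells, against 8.63, 9.01 and 8.67 in vector shAHR1 cells (1.16 ± 0.16, adjusted p = 0.0018). CALR, which encodes the calcium-binding chaperone calreticulin, measured 12.09, 12.07 and 11.72 with IL4I1 and 10.99, 11.03 and 10.98 without it (0.96 ± 0.14, adjusted p = 0.0035). The vector arrays of CALR lay within a very narrow range. The remaining called members fell outside the naming rule and were chosen after their values were seen. HSPA5, the main chaperone BiP, measured 12.593, 12.488 and 12.427 in IL4I1 shAHR1 cells, against 11.368, 11.730 and 11.003 in vector shAHR1 cells (1.14 ± 0.23, adjusted p = 0.025). HERPUD1 of protein degradation (0.94 ± 0.19, adjusted p = 0.025) and the co-chaperone DNAJB9 (0.94 ± 0.20, adjusted p = 0.036) were the other called members. The stress factor XBP1 (0.28 ± 0.17) and the chaperones HYOU1 (0.88 ± 0.23) and DNAJB11 (0.65 ± 0.17) were not called. The count was 4, 8 and 4 without vector shAHR1 replicate 1, 2 and 3, 4, 4 and 5 without IL4I1 shAHR1 replicate 1, 2 and 3, and 3 with the 6 arrays alone.

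Promoters of HSPA5 (chr9:125241344-125241593, minus strand) and CALR (chr19:12938359-12938608, plus strand) are shown because both held the endoplasmic reticulum stress element, searched on both strands as CCAAT and CCACG with 9 bases between them. The build is GRCh38.p14, each window ends at the base before the start, and the match is in capitals.
HSPA5: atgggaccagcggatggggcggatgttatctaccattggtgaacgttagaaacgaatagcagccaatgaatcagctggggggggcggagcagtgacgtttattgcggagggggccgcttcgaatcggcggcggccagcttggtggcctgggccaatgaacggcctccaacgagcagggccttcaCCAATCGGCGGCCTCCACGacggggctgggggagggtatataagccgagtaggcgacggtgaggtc
CALR: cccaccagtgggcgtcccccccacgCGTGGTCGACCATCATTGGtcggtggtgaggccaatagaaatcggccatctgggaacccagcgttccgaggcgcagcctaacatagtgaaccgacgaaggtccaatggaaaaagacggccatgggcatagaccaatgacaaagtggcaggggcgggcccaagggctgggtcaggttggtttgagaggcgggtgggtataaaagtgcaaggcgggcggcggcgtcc
In HSPA5 the element lay 66 to 48 bases before the start on the strand shown, and in CALR 225 to 207 bases before it on the opposite strand. It occurred in 0.074% of all windows. Counted by gene, it occurred in 0.0916% of all genes with a window and in 2 of the 7 called genes. Among all 17 measured genes of the group, 5 held it.

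**Figure D3:**
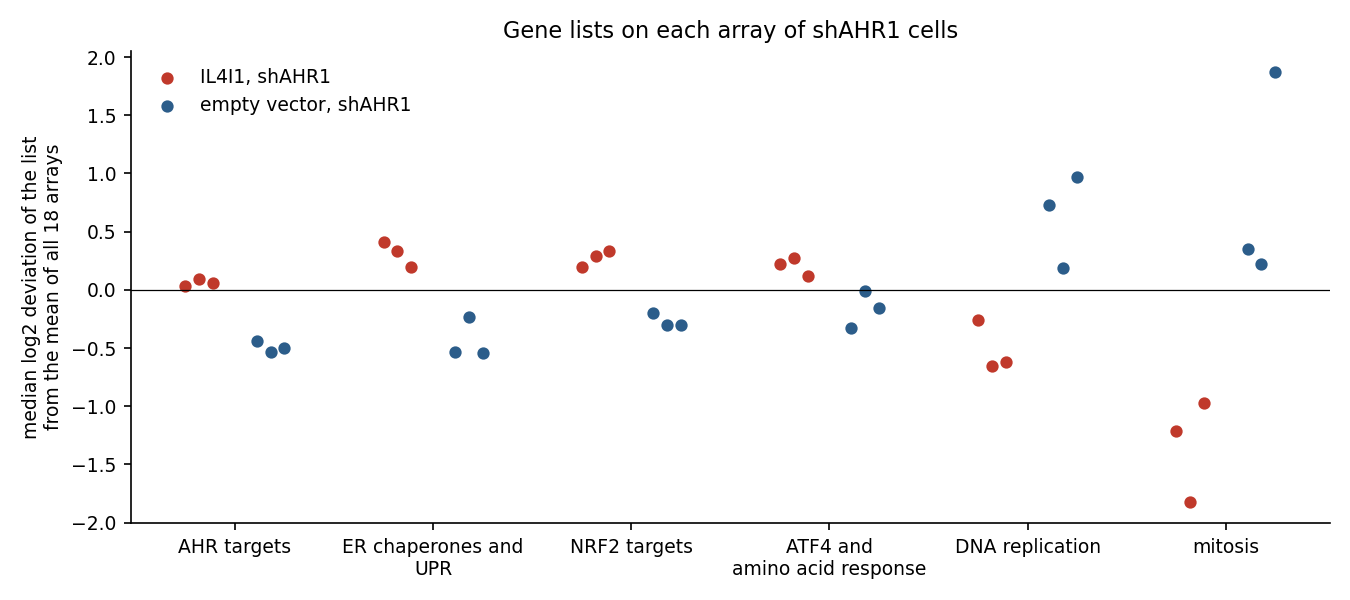
Median log2 deviation of 6 gene lists from each gene's mean over all 18 arrays, with a point per array, IL4I1 shAHR1 cells in red to the left of vector shAHR1 cells in blue. In all 6 lists the 3 IL4I1 arrays lie on the other side of the 3 vector arrays, and replicate 3 of the vector cells stands highest for mitosis at 1.87.

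Targets of NRF2, the factor that raises enzymes against oxidants, gave 4 called rises among 27 measured and 0 falls, with a median change of 0.52. Of all genes tested, 0.56% rose and 0.753% fell. NQO1 and NFE2L2, given above as AHR targets, were among the 4. HMOX1, which encodes the haem-degrading enzyme haem oxygenase 1, measured 10.29, 10.08 and 10.25 in IL4I1 shAHR1 cells, against 9.05, 8.53 and 8.21 in vector shAHR1 cells (1.61 ± 0.31, adjusted p = 0.02). TXNRD1, a thioredoxin reductase, measured 9.93, 9.90 and 10.04 with IL4I1 and 8.72, 9.02 and 8.95 without it (1.05 ± 0.20, adjusted p = 0.019). Both were tight in the IL4I1 cells and did not overlap with the vector cells. The cystine transporter SLC7A11 had a change with a wide error (1.49 ± 0.47, adjusted p = 0.13), and GCLM of glutathione synthesis had a change of 0.41 ± 0.22 (adjusted p = 0.45). The count of 4 became 1, 2 and 0 without vector shAHR1 replicate 1, 2 and 3, and 1, 0 and 0 without IL4I1 shAHR1 replicate 1, 2 and 3. With the 6 arrays alone it was 3, of which only HMOX1 was among the 4. Of 19 genes that scavenge peroxide and superoxide, 0 were called, and catalase (CAT) had a change of 0.08 ± 0.18.

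The ATF4 pathway, which cells switch on when amino acids run short, had 32 measured genes and 0 were called, although the median change was 0.43 and 27 lay above 0. DDIT3, a stress transcription factor, measured 7.63, 7.87 and 7.61 in IL4I1 shAHR1 cells and 5.99, 6.42 and 6.26 in vector shAHR1 cells, without overlap, at an adjusted p of 0.058. ATF4 itself had a change of 0.53 ± 0.19 (adjusted p = 0.19) and asparagine synthetase ASNS of 0.16 ± 0.31. Of 15 cytosolic aminoacyl-tRNA synthetases, 0 were called, and WARS1, which charges tryptophan, had a change of 0.61 ± 0.23 (adjusted p = 0.23). IL4I1 itself was the only called gene of 22 for tryptophan and aromatic amino acid metabolism, against 0.56% of all genes higher. The glutamate transporter SLC1A3, also a glial marker, was the only called gene of 22 amino acid transporters, against 0.753% of all genes lower. It fell by 1.10 on the log2 scale (SE 0.19, adjusted p = 0.012).

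Genes of cell division fell. Of 34 DNA replication genes 14 fell and 0 rose, with a median change of -1.13, and of 49 mitosis genes 13 fell and 0 rose, with a median of -2.22. All 34 and all 49 changes were below 0. For comparison, 0.753% of all genes fell. The nucleotide reductase subunit RRM1 measured 7.83, 7.78 and 8.03 in IL4I1 shAHR1 cells, against 8.89, 8.74 and 9.08 in vector shAHR1 cells (-1.02 ± 0.18, adjusted p = 0.013). The subunit RRM2 (-2.43 ± 0.54), thymidine kinase TK1 (-1.74 ± 0.35) and the clamp loader RFC3 (-1.42 ± 0.26) fell too. MCM10 fell to the floor. Of the replicative helicase, MCM2 (-1.07 ± 0.23), MCM3 (-1.41 ± 0.32), MCM4 (-1.23 ± 0.28), MCM5 (-2.00 ± 0.41) and MCM6 (-1.16 ± 0.26) fell, and MCM7 just missed the threshold (-1.58 ± 0.38, adjusted p = 0.053). These helicase genes were chosen after their values were seen.

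The mitotic kinase PLK1 measured 6.24, 5.50 and 6.71 in IL4I1 shAHR1 cells, against 8.29, 8.51 and 9.98 in vector shAHR1 cells (-2.77 ± 0.60, adjusted p = 0.035). Vector replicate 3 stood far above the others. CDC20, which activates the anaphase ubiquitin ligase, measured 6.14, 4.76 and 6.22 with IL4I1 and 8.04, 7.90 and 9.27 without it, with the same array highest. The spindle genes NUSAP1 (-2.37 ± 0.46, adjusted p = 0.022), KIF23 (-2.38 ± 0.50, adjusted p = 0.033) and PRC1 (-2.40 ± 0.55, adjusted p = 0.041) also fell. CDK1, NDC80, PBK, NEK2 and KIF20A fell to the floor. The proliferation marker MKI67 was at 5.75 with IL4I1 and 8.02 without it and was not called (-2.27 ± 0.56, adjusted p = 0.057).

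The counts of these calls changed with the arrays left out and with the settings of the fit, and the cause was not tested. For mitosis the list medians by array were -1.21, -1.82 and -0.97 in IL4I1 shAHR1 cells. In vector shAHR1 cells they were 0.35, 0.22 and 1.87, each relative to the mean of all 18 arrays. The count of 13 became 0, 16 and 0 without vector shAHR1 replicate 1, 2 and 3, and 0, 0 and 4 without IL4I1 shAHR1 replicate 1, 2 and 3. With the 6 arrays alone it was 0. Over all 18 arrays it was 21 with trended and robust variance, 24 with dim genes left out and 23 with array weights. It was 37 with the replicate number as a block, and stayed at 13 with arrays centred on their medians. For DNA replication the count of 14 became 1, 17 and 0, then 10, 0 and 2 in the same order of arrays left out, and 1 with the 6 arrays alone. It was 14 with trended and robust variance or the replicate block, 12 with dim genes left out and 17 with array weights. The groups did not overlap for 47 of the 49 mitosis genes and 29 of the 34 replication genes, against 9.87% of all genes lower with IL4I1.

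CDK2, which drives entry into S phase, measured 8.66, 8.42 and 8.12 in IL4I1 shAHR1 cells, against 9.65, 9.49 and 9.85 in vector shAHR1 cells (-1.27 ± 0.20, adjusted p = 0.0076). E2F1 (-1.41 ± 0.27, adjusted p = 0.02), E2F7 (-1.23 ± 0.22, adjusted p = 0.014) and E2F8 (-1.94 ± 0.40, adjusted p = 0.029), of the E2F family of S phase regulators, fell as well. CDKN1A, the inhibitor p21, had a change of 0.68 ± 0.23 (adjusted p = 0.17). CDK2, E2F1, E2F7 and E2F8 were the 4 called of 27 genes of the E2F, RB and inhibitor list, against 0.753% of all genes lower. That count became 2, 5 and 0 without vector replicate 1, 2 and 3, 2, 1 and 3 without IL4I1 replicate 1, 2 and 3, and 0 with the 6 arrays alone. Of 9 clustered histone genes 2 fell, against 0.753% of all genes. They were H2BC14 (-3.02 ± 0.63, adjusted p = 0.03) and H1-1, which fell to the floor. Of 26 p53 targets 0 were called, and the median change was 0.17.

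The promoter of PLK1 (chr16:23678639-23678888, plus strand, GRCh38.p14) is shown as that of a falling mitotic gene, with the cell cycle homology letters TTTGAA, searched on both strands, in capitals.
PLK1: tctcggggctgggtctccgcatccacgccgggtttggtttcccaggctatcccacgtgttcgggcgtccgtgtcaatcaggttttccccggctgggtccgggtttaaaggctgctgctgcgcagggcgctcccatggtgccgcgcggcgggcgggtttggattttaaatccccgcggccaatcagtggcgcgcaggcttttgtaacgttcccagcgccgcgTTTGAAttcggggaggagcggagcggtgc
The match lay 29 to 24 bases before the start. These letters occurred in 13.3% of all windows and, counted by gene, in 16.1% of genes. Of 13 called mitosis genes 12 had a promoter in the table, and 5 of these held a match (CDK1, PLK1, CDC20, KIF23 and PRC1). Among all measured mitosis genes 42 had one in the table and 23 of them held a match.

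Of 49 matrix genes 3 fell, against 0.753% of all genes. VCAN, the matrix proteoglycan versican, measured 7.06, 6.36 and 7.24 in IL4I1 shAHR1 cells, against 8.63, 8.05 and 8.42 in vector shAHR1 cells (-1.48 ± 0.22, adjusted p = 0.004). The collagen-binding integrin ITGA2 (-1.29 ± 0.22, adjusted p = 0.012) and the matricellular protein CCN2 (-1.34 ± 0.26, adjusted p = 0.02) were the others called. The fibroblast growth factor FGF7 was the only called gene of the 39 measured on the list of growth factors and receptors (-1.74 ± 0.36, adjusted p = 0.029), against 0.753% of all genes lower. Outside that list, and chosen after their values were seen, FGF14 (-1.60 ± 0.24, adjusted p = 0.0047) and the receptor TGFBR2 (-0.86 ± 0.19, adjusted p = 0.04) fell too. NT5E, the ectoenzyme CD73 that makes adenosine, fell to 10.45, 10.17 and 10.56 in IL4I1 shAHR1 cells, against 11.08, 11.38 and 11.58 in vector shAHR1 cells (-0.95 ± 0.17, adjusted p = 0.016). DCC, the netrin receptor, was at 4.15, 4.19 and 3.66 with IL4I1 and at 6.66, 5.99 and 6.51 without it, and fell to the floor (adjusted p = 0.0001). Of 10 glial and neural markers, DCC and SLC1A3 were the 2 that fell, against 0.753% of all genes. The list averaged 6.20 to 6.37 per array in IL4I1 shAHR1 cells and 6.72 to 6.81 in vector shAHR1 cells, and its part in the other results was not tested.

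Several groups gave no calls in shAHR1 cells, where 1.31% of all genes tested were called. These were 27 interferon-induced genes, 20 NF-kB subunits, inhibitors and adhesion targets, 24 AP-1 and immediate early factors, 20 genes of cholesterol synthesis, 16 of ammonia, glutamine and urea cycle, 10 keratins and epithelial inhibitors, 10 ribosomal proteins and 7 reference genes. Their median changes lay between -0.14 and 0.37. The hair keratin KRT86, which was called, is not on the keratin list.

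The study placed the same IL4I1 vector in cells with AHR and in cells of the other AHR hairpin, which asks how the response to IL4I1 depends on AHR. IL4I1 changed 711 genes in shCtrl cells (4.58%) and 95 in shAHR2 cells (0.612%). No gene passed the test of the difference between the IL4I1 effect in shAHR1 and in shCtrl cells, or between shAHR1 and shAHR2 cells. The unadjusted limma p of the difference was under 0.05 for 901 and 547 genes, 5.8% and 3.52% of those tested. If no effect differed, a fraction of about 0.05 would pass that threshold. The larger count in shCtrl cells was therefore not shown to be a larger effect on any gene.

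Of the 87 genes that rose in shAHR1 cells, 54 also rose in shCtrl cells, 62.1% of the 87 and 17.3% of the 313 there (2.02% of all genes). In shAHR2 cells 30 also rose, 34.5% of the 87 and 57.7% of the 52 there (0.335%). Of the 117 that fell, 80 also fell in shCtrl cells (68.4% of the 117, 20.1% of the 398, which are 2.56% of all genes) and 26 in shAHR2 cells (22.2% of the 117, 60.5% of the 43, which are 0.277%). The sign was the same in shCtrl cells for 82 of the 87 and 114 of the 117, and in shAHR2 cells for 86 and 117. These effects come from different arrays. Across all 15529 genes the changes in shAHR1 cells correlated with those in shCtrl cells at Pearson 0.558 and Spearman 0.399, and with those in shAHR2 cells at 0.545 and 0.379, where genes are not independent replicates.

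The changes of AHRR and CYP1B1 differed by less than their errors between backgrounds. AHRR had a change of 0.84 ± 0.17 in shAHR1, 0.81 ± 0.17 in shAHR2 and 0.71 ± 0.17 in shCtrl cells. CYP1B1 had a change of 1.20 ± 0.28, 0.98 ± 0.28 and 1.18 ± 0.28 in the same order. The differences between shAHR1 and shCtrl cells were 0.13 ± 0.24 for AHRR and 0.02 ± 0.39 for CYP1B1. Their levels were lower under the hairpin. AHRR averaged 7.10 ± 0.12 in IL4I1 shAHR1 cells, against 8.24 ± 0.26 in IL4I1 shCtrl cells, and 6.26 ± 0.19 in vector shAHR1 cells, against 7.54 ± 0.26 in vector shCtrl cells (SD, n = 3 each). Over all genes, shAHR1 against shCtrl called 151 higher (0.972%) and 89 lower (0.573%) with IL4I1, and 46 higher (0.296%) and 17 lower (0.109%) without it. Both differences of AHRR passed, at -1.15 ± 0.17 with IL4I1 and -1.27 ± 0.17 without it (adjusted p = 0.0026 and 0.0033).

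TIPARP had a change of -0.06 ± 0.18 in shAHR1, 0.42 ± 0.18 in shAHR2 and 1.55 ± 0.18 in shCtrl cells, and the effect in shAHR1 minus shCtrl cells was -1.61 ± 0.25 (adjusted p = 0.077). Its mean was 7.11 ± 0.32 in IL4I1 shAHR1 cells, against 9.21 ± 0.20 in IL4I1 shCtrl cells, a difference that passed (-2.10 ± 0.18, adjusted p = 1.7e-05). Without IL4I1 it was 7.17 ± 0.17 in vector shAHR1 cells, against 7.66 ± 0.07 in vector shCtrl cells, which did not pass (adjusted p = 0.29).

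SLC2A9, a transporter of urate, had the lowest adjusted p of the difference in both tests, shared with TIPARP against shCtrl. It measured 5.96, 6.46 and 6.05 in IL4I1 shAHR1 cells and 6.40, 6.33 and 6.60 in vector shAHR1 cells, with overlap (-0.29 ± 0.21, adjusted p = 0.64). It rose by 1.56 ± 0.21 in shCtrl cells (adjusted p = 0.00074) and by 1.64 ± 0.21 in shAHR2 cells (adjusted p = 0.0012). The differences of effects were -1.85 ± 0.29 and -1.93 ± 0.29 (adjusted p = 0.077 and 0.096). Vector shAHR1 cells started higher than vector shCtrl cells by 1.26 ± 0.21 (adjusted p = 0.011), a comparison that uses the same vector shAHR1 arrays.

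CCL2 fell with IL4I1 under both AHR hairpins, with changes of -2.03 ± 0.24 under shAHR1 (adjusted p = 0.00071) and -2.49 ± 0.24 under shAHR2 (adjusted p = 5.8e-05), while its change was -0.00 ± 0.24 in shCtrl cells. The difference between shAHR1 and shCtrl cells was -2.03 ± 0.34 (adjusted p = 0.091). Its mean was 6.12 ± 0.29 in IL4I1 shAHR1 and 8.15 ± 0.19 in vector shAHR1 cells, and 6.42 ± 0.36 in IL4I1 shCtrl and 6.42 ± 0.46 in vector shCtrl cells. The vector shAHR1 cells were the high group, above vector shCtrl cells by 1.73 ± 0.24 (adjusted p = 0.0037). The fall with IL4I1 and this rise share the vector shAHR1 arrays.

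The changes of MANF and SDF2L1 in shAHR1 cells lay between those of the other backgrounds. MANF had a change of 1.29 ± 0.17 in shAHR1, 1.03 ± 0.17 in shAHR2 and 1.76 ± 0.17 in shCtrl cells, and SDF2L1 of 1.46 ± 0.19, 1.00 ± 0.19 and 2.01 ± 0.19. HYOU1, which was not called in shAHR1 cells, had changes of 0.88, 1.06 and 1.80 in that order. Called members of the endoplasmic reticulum group numbered 7, 4 and 12 in that order, with medians of 0.65, 0.56 and 1.16. For mitosis the called falls numbered 13, 0 and 32, with medians of -2.22, -1.82 and -2.16. SLAMF9 had a change of 3.62 ± 0.30, 3.83 ± 0.30 and 3.49 ± 0.30. No difference of effects passed for MANF, SDF2L1 or SLAMF9.

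**Figure D4:**
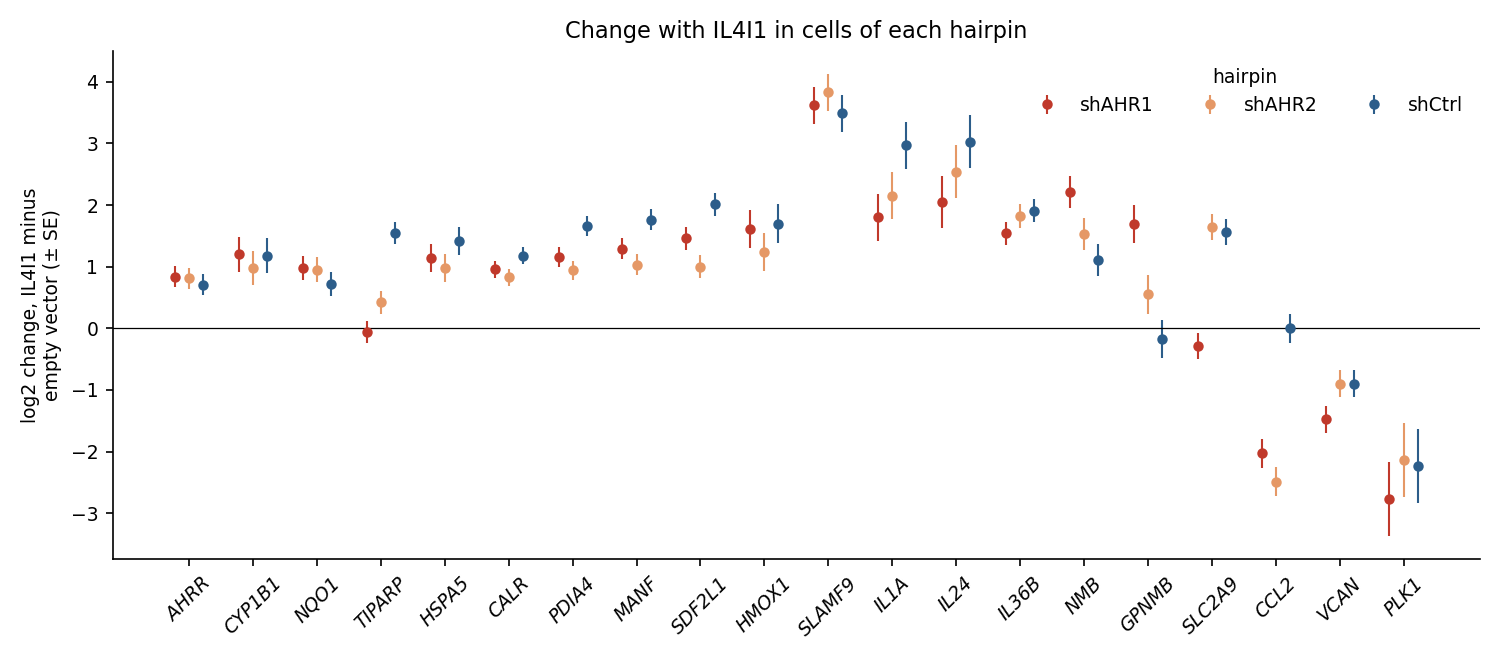
Log2 change with IL4I1 against empty vector for 20 genes, with SE bars, in shAHR1 (red), shAHR2 (orange) and shCtrl (blue) cells. SLAMF9 lies at 3.62, 3.83 and 3.49, TIPARP at -0.06, 0.42 and 1.55, and CCL2 at -2.03, -2.49 and -0.00 in that order.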

How the data were processed

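RNA of U-87MG cells was measured on 1-colour Affymetrix arrays. The log2 values per probe set are those the authors deposited, made with oligo and RMA, per the submitters' processing notes; for versions, annotation and genome build, the sources used here give nothing. RMA makes array distributions alike, so a change of the whole transcriptome at once would not show. Of 18913 probe sets, 15598 had 1 gene symbol, 870 had several and 2445 had none; 1173 old symbols were updated through RefSeq (GRCh38.p14), and the brightest probe set was kept for 66 genes with several, leaving 15529 genes.

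Genes were fitted with limma 3.58.1 (R 4.3.3, lmFit and eBayes) on 6 group means over 18 arrays, adjusted by Benjamini-Hochberg over all genes. The number of arrays limits the precision: the median SE was 0.22, and 0.1 is the smallest p of an exact permutation test on 3 against 3. Fits were tested on simulated data with independent noise for each gene. Such data hold no genes that move together between replicates, so error rates under such shifts were not tested. The members and lists were chosen with earlier results of these data known. Named genes were AHR and IL4I1, up to 15 called genes in each direction by size among those bright enough and without overlap, up to 4 called members of each of 33 lists (2 where none was called), and up to 5 genes per direction in each difference of effects. Genes outside this rule are given as background or marked. No size is given where a group mean was 4.51 or less. Alternatives were the arrays in the fit, trended and robust variance, dim genes, centring, array weights, all probe sets, a change of at least 1, a replicate block and leaving out arrays. Over all genes, same-numbered arrays of the shAHR1 groups did not deviate together (correlations -0.0148, 0.0504 and 0.00911). That check does not address a shift shared by a smaller set of genes.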

Additional observations from a re-analysis of the deposited data

Results flagged for a closer look

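In 5 named genes every array moved 1 way with IL4I1 in shAHR1 cells and the opposite way in another background. None of these differences passed the test over all genes, and the share of all genes that moved so was not counted. In shAHR1 cells alone the arrays did not overlap for 18.1% of all genes. FMO4, LMO3 and ENO4 were named for a low p in a difference of effects, so their opposite movement follows in part from that choice. The effect in shAHR1 minus shCtrl cells was 1.42 for FMO4, a flavin monooxygenase, which measured 6.66, 6.56 and 6.54 in IL4I1 shAHR1 cells and 5.49, 5.80 and 6.14 in vector shAHR1 cells. The effect in shAHR1 minus shAHR2 cells was 0.97 for BCL3, an NF-kB regulator, 1.10 for LMO3, -2.64 for ENO4 and -0.76 for PAX2. In GLRA2 and TP53TG5 the arrays also moved in opposite ways in shAHR1 and shAHR2 cells, but a group mean was 4.51 or less and no size is given.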

How the results depend on the processing

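Of the 107 named genes, 3 changed sign under some alternative (CHI3L1 between -0.02 and 0.29, CPEB2 between -0.03 and 0.10, TIPARP between -0.19 and 0.12), and 0 of these were called. The 204 calls became 43 with only the compared arrays in the fit, 353 with trended and robust variance, 287 with dim genes left out, 293 with array weights, 199 with arrays centred on their medians, 248 with all probe sets tested and 143 where a log2 change of 1 or more was also required; the cause was not tested. Without 1 of the 6 arrays the count ranged from 34 (without vector shAHR1 replicate 3) to 211, and it was 180 without vector shCtrl replicate 2, which stands apart in relative log expression. Leaving out an array keeps 2 in its group, whose spread is then pooled with the other groups. Centring turned the split of 87 higher and 117 lower into 91 and 108. The replicate number as a block gave 372 calls, among them all 204. Over all genes, the check of deviations showed no pairing by number in the shAHR1 groups. For mitosis the list median was higher in replicate 3 than in replicate 1 in every group. It was 1.87 against 0.35 in vector shAHR1, 1.85 against 0.19 in vector shAHR2 and 1.77 against 0.26 in vector shCtrl cells. With IL4I1 it was -0.97 against -1.21, -0.28 against -1.06 and -0.49 against -1.74 in that order. The cause was not tested. For the effect in shAHR1 minus shCtrl cells, 0 calls became 4 with trended and robust variance and 3 with dim genes left out, and ranged from 0 to 3 without 1 array. For shAHR1 minus shAHR2 cells, 0 calls became 1 with only the compared arrays, with dim genes left out or with array weights, and ranged from 0 to 1 without 1 array. The count of list members called for mitosis was 37 with the replicate block. Signal near background limits what can be said of 22 of the called genes, which had a group mean of 4.51 or less.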

Other observations

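The genes below stand outside the lists and were chosen after their values were seen. The GABA receptor subunit GABRQ measured 6.90, 6.46 and 7.04 in IL4I1 shAHR1 cells, against 8.17, 8.28 and 8.64 in vector shAHR1 cells (-1.57 ± 0.24, limma adjusted p = 0.0044). GABRA3, another subunit, measured 7.28, 6.93 and 6.98 with IL4I1 and 8.60, 8.35 and 8.43 without it (-1.40 ± 0.26, adjusted p = 0.017). The adhesion genes NEGR1 (-1.96 ± 0.31, adjusted p = 0.0056) and NLGN1 (-1.07 ± 0.24, adjusted p = 0.038) and the transcription factors SOX9 (-0.96 ± 0.20, adjusted p = 0.031) and NR2F1 (-0.91 ± 0.19, adjusted p = 0.03) fell as well. GABRQ had a change of -1.14 in shAHR2 and -1.01 in shCtrl cells. NRXN3 and DCLK1, named above, rose.

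PTX3 and ENPP2 rose and TGM2 fell. PTX3, a pentraxin of innate immunity, measured 9.30, 9.81 and 10.03 in IL4I1 shAHR1 cells, against 8.26, 8.72 and 8.42 in vector shAHR1 cells (1.25 ± 0.19, adjusted p = 0.0047). ENPP2, which encodes autotaxin, measured 10.42, 10.23 and 10.55 with IL4I1 and 9.53, 9.53 and 9.34 without it (0.93 ± 0.17, adjusted p = 0.014). The crosslinking enzyme TGM2 fell to 9.88, 9.46 and 10.12 in IL4I1 shAHR1 cells, against 10.97, 10.81 and 11.25 in vector shAHR1 cells (-1.19 ± 0.18, adjusted p = 0.0047). TGM2 had a change of 0.01 ± 0.18 in shCtrl cells, and the difference of effects did not pass (adjusted p = 0.23).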
